A study of Mus musculus with 319 samples.

Results

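The genes described here are 3 chemokines that position lymphocytes in lymphoid organs (Cxcl13, Ccl19 and Ccl21a), the chemokine receptor Ccr7, the membrane cytokine lymphotoxin beta (Ltb) and the vascular addressin Madcam1. The platform's table of probes and genes names 8 of 23382 probes for these 6 genes, 3 of them for Ccl21a and 1 for each other gene, and all 8 probes had a value on every array. The question was which of these genes share the arrays on which the B cell gene Cd79b is high, and whether Ccr7 and Ccl21a stay apart from them. Cd79b, which encodes a chain of the B cell antigen receptor complex, was above a log10 ratio of -0.151 on 56 of 319 arrays and below it on 263, and this value equals a log2 ratio of -0.50. The arrays are called above and below the cut here. These classes were made from measured values and are not groups of the study, so the levels of the genes in them are given as a description, with no test.

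Every array carried muscle RNA of 1 F2 mouse from a cross of the strains C57BL/6J and C3H/HeJ, compared with a pool made of RNA of all the samples. Mice of both sexes were used, all on an ApoE null background, which disturbs lipoprotein clearance, and all were fed a high fat "Western" diet from week 8 to week 24 of age. These features are shared by the arrays above and below the cut, and no ApoE wild-type or chow-fed muscle was analysed here. The labels give no genotype or batch, and the animals are known by number only.

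In lymphoid organs, lymphocytes carry lymphotoxin, made of Ltb and Lta chains, and engage the receptor Ltbr on stromal cells. Through NF-kB proteins this receptor is known to induce Cxcl13, Ccl19, Ccl21 and Madcam1. Cxcl13 draws cells with Cxcr5 into B cell follicles, Ccl19 and Ccl21 draw cells with Ccr7 into T cell zones, and Madcam1 on venules binds the integrin that contains Itgb7. The same genes are known from lymphoid clusters that form in inflamed tissue.

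The log2 ratios are given as animal over pool. The labels place the animal's RNA in Cy3 and the pool in Cy5 without stating the direction of the ratio, which was taken from Y-linked genes: Eif2s3y lay at a median of 1.08 on 155 arrays and at -5.62 on 164, and a gene carried by 155 of 319 mice in an equal pool would stand at 1.04 in its carriers. Over 50721 pairs of arrays the Pearson r across probes ran from -0.601 to 0.848 and was under -0.3 in 3735 pairs. The median r was 0.263 among arrays above the cut, 0.366 among those below and -0.19 between the classes. The SD over the probes of an array had a median of 0.365 above the cut and 0.358 below it. It was outlying on 10 arrays, of which those of animals 55 and 75 lay above the cut, and results that turn on them are also given without them. The number of arrays limits the precision, and since the RNA is from whole muscle, more cells of a type and more RNA per cell cannot be told apart. The animal number 227 is carried by 2 arrays, both below the cut and labelled 227 and 227_2, so there are 318 numbers for 319 arrays. Their r across probes was 0.535, and 44 of the 634 other pairs with either array had a higher one, so they were kept as separate arrays. The p-values measure the spread between animals and arrays together.

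Cxcl13 and Ltb separated the classes by far more than the other members. On the arrays above the cut Cxcl13 had a lowest log2 ratio of 0.46, a median of 1.31 and a highest of 2.93, against -4.47, -2.89 and 1.16 on the arrays below it. Only 1 array below the cut, that of animal 193, lay over the lowest array above it. The medians differed by 4.20 log2 units, which is 18.4-fold. Across all probes tested a median difference over 1 was reached by 2.54% (590 of 23190), and one under -1 by 0.00431%. Of the members, the probes of Cxcl13, Ltb and Ccl19 and the Ccl21a probes called 1 and 2 here had a difference over 1, and those of Madcam1, Ccr7 and the Ccl21a probe called 3 did not. The plot of levels by class shows these distributions side by side.

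**Figure D1:**
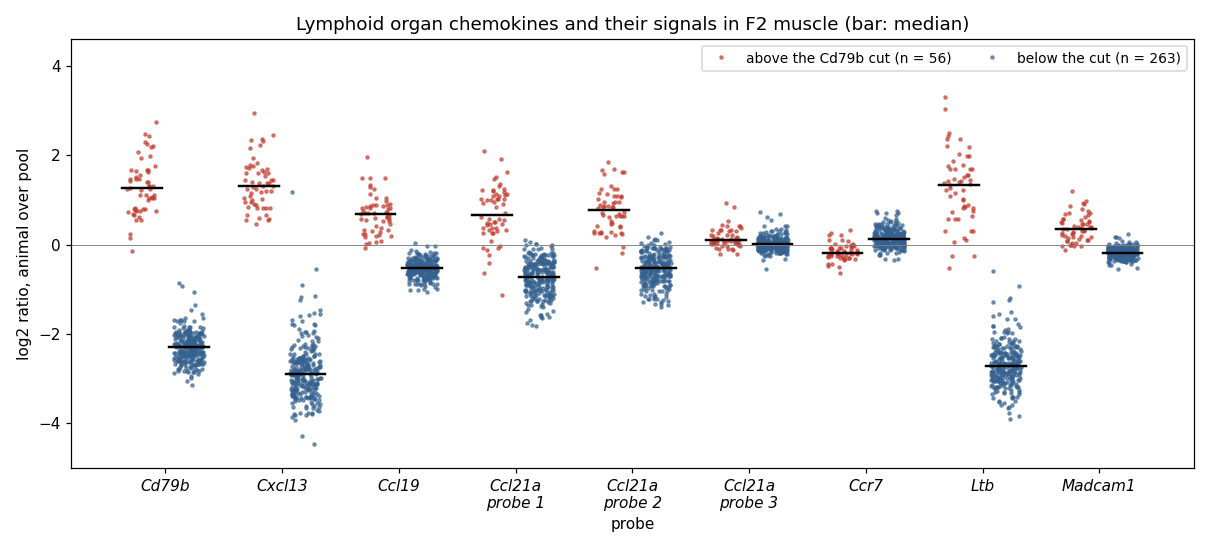
Log2 ratio of animal over pool for Cd79b and the 8 member probes, 1 point per array, with arrays above the Cd79b cut (n = 56) left of arrays below it (n = 263), and a bar at each median. Ltb has no overlap between the classes, by a narrow gap (-0.52 against -0.59), as do genes not plotted, such as Cd22 (0.06 against -0.84). Cxcl13 is passed by 1 array below the cut, while Ccr7 lies lower above the cut.

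Ccl19, a ligand of Ccr7 that stromal and dendritic cells make, had a lowest ratio of -0.07, a median of 0.69 and a highest of 1.97 above the cut, against -1.07, -0.53 and 0.04 below it. The difference of medians was 1.23, or 2.34-fold. Only 3 arrays below the cut lay over the lowest one above it. The 56 highest arrays of Ccl19 held 55 of the 56 arrays above the cut, the same number as for Cxcl13. Over all probes, 3.60% (834) had at least 80% of the arrays above the cut among their 56 highest.

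The probes named Ccl21a did not behave alike. Probe 1 (gene ID 18829) had a lowest ratio of -1.12, a median of 0.66 and a highest of 2.09 above the cut, against -1.83, -0.72 and 0.09 below it, a difference of 1.37 or 2.59-fold. Probe 2 (gene ID 20298) had -0.53, 0.78 and 1.85 above the cut and -1.40, -0.54 and 0.26 below it, a difference of 1.31 or 2.48-fold. The arrays above the cut filled 49 of the 56 highest places of probe 1 and 53 of those of probe 2. So by these 2 probes Ccl21a did share the arrays of high Cd79b. Probe 3, listed under the same ID as probe 2, had -0.21, 0.10 and 0.93 above the cut and -0.56, 0.01 and 0.72 below it. With a difference of 0.09 or 1.07-fold and 20 of 56 highest places, it was the only probe of the gene that hardly followed the classes.

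The mouse genome holds several nearly identical Ccl21 genes, and the ID of probes 2 and 3 is not in the RefSeq table used here, so which copy each probe reads is uncertain. The promoters of the copies show how close they are. Over 249 bases before the start, those of Ccl21a and Ccl21d in RefSeq (GRCm38.p6) are 99.6% identical with 1 mismatch. The stretches below, chr4:42774051-42774150 on the minus strand and chr4:41903453-41903552 on the plus strand, are shown because they hold that mismatch, marked by the capital.
Ccl21a: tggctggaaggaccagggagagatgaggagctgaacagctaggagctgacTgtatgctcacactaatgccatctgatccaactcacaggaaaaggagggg
Ccl21d: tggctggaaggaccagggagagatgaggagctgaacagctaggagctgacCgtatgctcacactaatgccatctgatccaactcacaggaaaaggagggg

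Ccr7, the receptor for Ccl19 and Ccl21 on T cells, B cells and migrating dendritic cells, ran the other way. Its probe had a lowest ratio of -0.63, a median of -0.18 and a highest of 0.33 above the cut, against -0.35, 0.13 and 0.76 below it. The difference of medians was -0.31, a ratio of 0.804, and the classes overlapped. It was -0.24 with array medians subtracted and -0.25 after quantile normalization. A lower median above the cut was common, as 15996 of 23190 probes had one, and the median difference over all probes was -0.08. Of the 56 arrays above the cut, 4 lay over the median of those below, and 1 was among the 56 highest of Ccr7. Hence the receptor probe, unlike the probes of its ligands other than Ccl21a probe 3, was not higher on the arrays of high Cd79b.

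Ltb, the lymphocyte signal, had a lowest ratio of -0.52, a median of 1.34 and a highest of 3.29 above the cut, against -3.91, -2.71 and -0.59 below it. The classes did not overlap, but their nearest arrays, those of animals 35 (-0.52) and 317 (-0.59), lay close. How many of all probes have no overlap was not counted, while 3.60% had at least 80% of the arrays above the cut among their 56 highest. Ltb was not alone in this. The probe of Cd22 had a lowest ratio of 0.06 above the cut against a highest of -0.84 below it. For the T cell gene Cd2 these were 0.00 and -1.04. The medians of Ltb differed by 4.05 or 16.6-fold. Madcam1, the addressin, had -0.11, 0.36 and 1.20 above the cut and -0.54, -0.18 and 0.23 below it. Its difference of 0.54, or 1.45-fold, was the smallest of the members that followed Cd79b, and 49 of its 56 highest arrays were above the cut.

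Each member was also split once at its own largest gap in sum of squares. Cxcl13 split into 58 high arrays, of which 56 were above the Cd79b cut, and Ltb into 57, of which 56 were. All 51 high arrays of Ccl19 were above the cut, which is 91.1% of the 56. For Ccl21a probe 1 it was 48 of 49 high arrays, and for probe 2 it was 53 of 55. For Madcam1 it was 43 of 47, which is 76.8% of the arrays above the cut. Ccl21a probe 3 had 27 of 88 and Ccr7 had 4 of 143. Taking Cxcl13, Ccl19, Ccl21a probe 1, Ltb and Madcam1 together, all 5 were over their split on 36 of the 56 arrays above the cut, 4 of them on 15, 3 on 4 and 2 on 1. Below the cut, 255 of 263 arrays had none over its split, 8 had 1, and 0 had more. The 8 included the arrays of animals 193 and 256, with Cxcl13 ratios of 1.16 and -0.54, and that of animal 317, with an Ltb ratio of -0.59.

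The arrays next to the cut were few. Just above it lay animal 35 with a Cd79b ratio of -0.15, followed by animal 4 at 0.15. Just below it lay animal 145 at -0.85 and animal 256 at -0.92. On the array of animal 35, Cxcl13 was at 0.89, Ltb at -0.52, Ccl21a probe 1 at -0.42 and Ccl21a probe 2 at -0.53. Of the 5 lead probes, only those of Cxcl13 and Ltb were over their split on it, and its Ltb was the lowest above the cut. On that of animal 145, Cxcl13 and Ltb both stood at -1.25. At the other end, the array of animal 112 had the highest Cxcl13 (2.93) and the highest values of Ccl21a probe 1 (2.09) and probe 2 (1.85), and also the lowest Madcam1 of the arrays above the cut (-0.11).

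The arrays above the cut were not spread evenly over the animal numbers. In 10 runs of consecutive numbers, of 32 arrays each (31 in the last), the first 4 runs (animals 1 to 159) held 9, 15, 7 and 7 such arrays, and each later run held between 1 and 6. What the numbers stand for is not given in the labels, and their part in the levels was not tested. The slopes given further on were also fitted with these 10 runs as a block. The differences of medians were close in both parts of the series when it was divided at the middle animal number. In the earlier part, with 40 arrays above the cut and 120 below, they were 4.20 for Cxcl13, 4.17 for Ltb, 1.16 for Ccl19, 1.32 for Ccl21a probe 1, 0.50 for Madcam1 and -0.31 for Ccr7. In the later part, with 16 arrays above and 143 below, they were 4.22 for Cxcl13, 3.86 for Ltb, 1.30 for Ccl19, 1.63 for Ccl21a probe 1, 0.58 for Madcam1 and -0.33 for Ccr7.

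**Figure D2:**
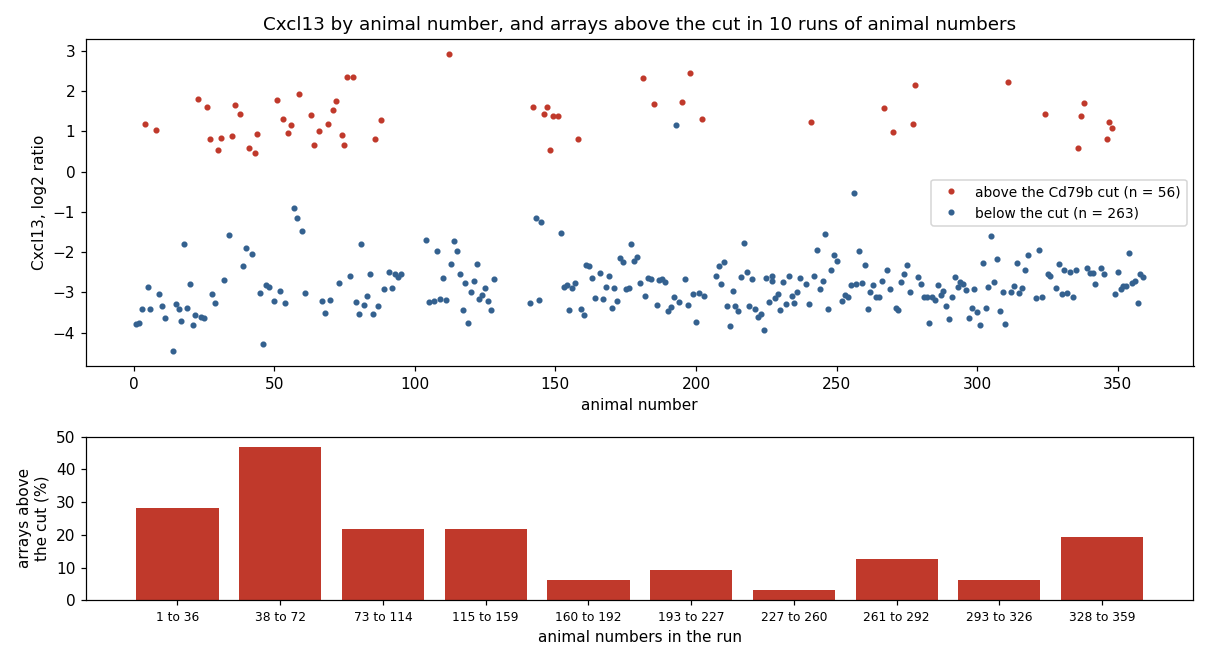
Upper panel: log2 ratio of Cxcl13 (animal over pool) against animal number, with arrays above the Cd79b cut (n = 56) and below it (n = 263) in different colours. Lower panel: percent of arrays above the cut in each of 10 runs of animal numbers, which is 46.9% for animals 38 to 72 and 3.13% for animals 227 to 260.

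The promoters of the members that moved together were searched for GGG and CC with any 5 bases between them, a short form of the NF-kB motif, on both strands of the 250 bases before the start, counting overlapping matches. It is a loose pattern: 45.8% of all promoters in the table (15046 of 32851) hold it. Madcam1 and Ltb each had 5 matches, Cxcl13 and Ccl19 each had 2, Ccl21a had 0, and no promoter of Ccr7 was in the table. Both matches of Cxcl13 are the same bases read on both strands, and so are those of Ccl19. The 5 of Madcam1 and the 5 of Ltb lie in 2 stretches each. The windows around the matches, from RefSeq GRCm38.p6, are shown because these members shared the arrays of high Cd79b, with the matched letters in capitals. They are chr10:79664455-79664518 (plus strand) for Madcam1, chr17:35194400-35194498 (plus) for Ltb, chr5:95956856-95956905 (plus) for Cxcl13 and chr4:42756586-42756615 (minus) for Ccl19. A match is a description of the letters only.
Madcam1: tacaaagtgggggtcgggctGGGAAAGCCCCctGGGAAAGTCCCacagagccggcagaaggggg
Ltb: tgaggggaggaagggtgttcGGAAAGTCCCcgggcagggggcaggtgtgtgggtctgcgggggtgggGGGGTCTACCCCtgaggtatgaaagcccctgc
Cxcl13: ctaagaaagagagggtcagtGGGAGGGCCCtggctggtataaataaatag
Ccl19: GGGAAGACCCagaacgggccatcgaggggg

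Within a class the cut plays no part, so the relation of each member to Cd79b could be tested there. A slope is the change in the member's log2 ratio per log2 unit of Cd79b, fitted by limma with p-values adjusted over all probes tested. Above the cut (n = 56) the slope was 1.04 ± 0.11 (SE) for Ltb, with adjusted p = 2.17e-11. It was 0.51 ± 0.10 for Cxcl13 (adjusted p = 6.21e-05), 0.42 ± 0.08 for Ccl19 (2.1e-05) and 0.24 ± 0.06 for Madcam1 (0.000906). Ccl21a probe 2 had 0.65 ± 0.07 (1.23e-11) and probe 3 had 0.21 ± 0.04 (5.93e-05). Thus 6 of 8 probes were higher with Cd79b, and across all probes 12.3% were higher and 17.0% lower. The slope of Ccl21a probe 1, 0.29 ± 0.13 (adjusted p = 0.0803), and that of Ccr7, -0.06 ± 0.04 (0.248), did not pass. After quantile normalization the calls of Cxcl13 (0.29, adjusted p = 0.289), Ccl19 (0.15, 0.155) and Madcam1 (0.036, 0.696) ended, and the cause was not tested.

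The arrays of animals 55 and 75 decided the value for Ccl21a probe 1. They had the ratios -1.12 and -0.64 in this probe against 1.66 and 1.63 in probe 2, with Cd79b at 2.73 and 2.28 and an SD over probes of 0.927 and 0.996. Without the arrays of outlying SD the slope of probe 1 was 0.58 (adjusted p = 1.57e-05 by limma) and its r with Cd79b 0.610, against 0.289 with them. The slope of Ccr7 then was -0.12 (0.0267), so that it passed as lower with Cd79b. The r of Cxcl13 was 0.713 without these arrays and 0.570 with them.

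Below the cut (n = 263), where Cd79b varied over a smaller range, Ltb and Cxcl13 had the steepest slopes of the members. They were 1.07 ± 0.06 for Ltb (limma adjusted p = 9.6e-44) and 0.99 ± 0.10 for Cxcl13 (9.19e-18). Ccl19 had 0.14 ± 0.03 (0.000222), Madcam1 0.11 ± 0.02 (6.57e-06), Ccl21a probe 2 0.18 ± 0.06 (0.0103) and Ccl21a probe 3 0.12 ± 0.03 (0.000204). Again 6 of 8 probes were higher with Cd79b, where 24.8% of all probes were higher and 22.8% lower. Ccl21a probe 1 had a slope of 0.00 ± 0.07 (0.981) and Ccr7 one of -0.02 ± 0.04 (0.654). With the B cell list score in place of Cd79b, probe 1 ran lower with it (-0.25 per unit of the score, limma adjusted p = 0.014). That score is the mean of the list's genes, each first scaled to the same SD, so its slopes have another unit. After quantile normalization probe 1 was higher with Cd79b (0.10, adjusted p = 0.0406).

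**Figure D3:**
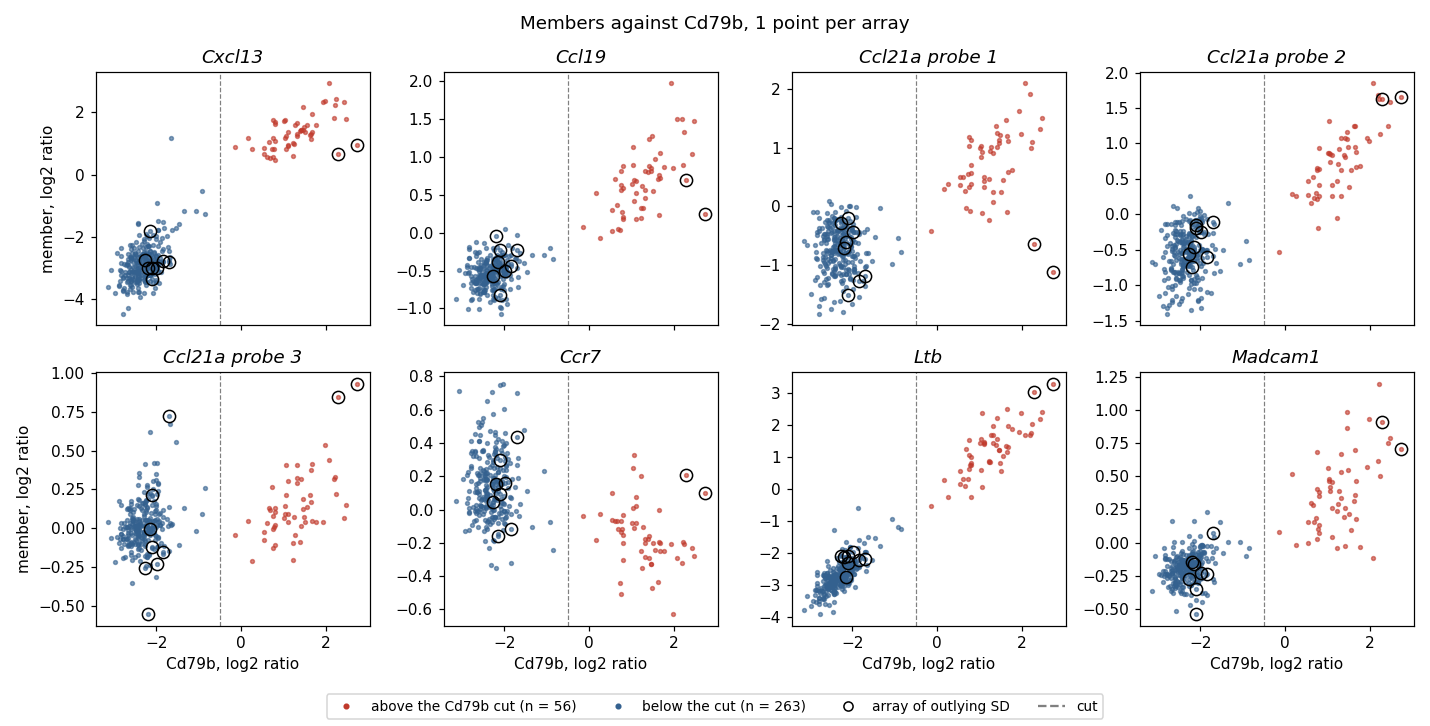
Log2 ratio of each member probe against that of Cd79b, 1 point per array, for arrays above the cut (n = 56) and below it (n = 263), with the cut as a dashed line. Circles mark the 10 arrays of outlying SD, of which the 2 above the cut lie at -1.12 and -0.64 in Ccl21a probe 1 but at 1.66 and 1.63 in probe 2.

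As correlations, Ltb had r = 0.789 (Spearman rho 0.746) with Cd79b above the cut and r = 0.742 (rho 0.720) below it. Cxcl13 had r = 0.570 (rho 0.587) above and 0.530 (rho 0.416) below, and Ccl19 had 0.597 (rho 0.622) above and 0.252 (rho 0.249) below. Madcam1 had 0.495 (rho 0.439) above and 0.310 (rho 0.301) below. Two-sided permutation p-values from 100000 resamples lay between 1e-05, the smallest they can give, and 0.00084 for these values of r and rho. Ccl21a probe 1 had r = 0.289 (permutation p = 0.0312) and rho 0.416 (0.00156) above the cut. Ccr7 had r = -0.207 (permutation p = 0.127) and rho -0.369 (0.00549) there. Below the cut probe 1 had r = 0.002 and rho -0.021, and Ccr7 had r = -0.036 and rho -0.0009, with permutation p of at least 0.56. With the 2 most distant Cd79b values left out of each class, r was 0.736 above and 0.719 below for Ltb, 0.641 and 0.482 for Cxcl13, 0.668 and 0.225 for Ccl19, and 0.462 and 0.30 for Madcam1. In all, 72 correlations were computed, 36 in each class. The series was also divided at the middle animal number, with 40 and 16 arrays above the cut and 120 and 143 below it. In the earlier and the later part r with Cd79b was 0.545 and 0.686 for Cxcl13 above the cut and 0.607 and 0.455 below it. For Madcam1 it was 0.524 and 0.462 above the cut, and 0.423 and 0.199 below it. For Ltb it was 0.825 and 0.650 above, and 0.757 and 0.729 below. For Ccl19 it was 0.594 and 0.599 above, and 0.332 and 0.181 below. For Ccl21a probe 1 it was 0.262 and 0.416 above, and 0.126 and -0.128 below. For Ccr7 it was -0.189 and -0.298 above, and 0.029 and -0.096 below.

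The slopes on Cd79b of some members differed between the classes. Ccl19 was steeper above the cut by 0.28 ± 0.06 (limma adjusted p = 0.000801) and Madcam1 by 0.13 ± 0.04 (0.0243). Cxcl13 was less steep above the cut, with a difference of -0.47 ± 0.15 (0.0255). Ccl21a probe 2 was steeper above by 0.47 ± 0.09 (6.27e-05). Over all probes 5.13% were steeper above and 3.38% less steep. For Ltb the difference was -0.03 ± 0.10 (0.922), for Ccl21a probe 1 it was 0.29 ± 0.12 (0.138), for probe 3 it was 0.09 ± 0.04 (0.214) and for Ccr7 it was -0.04 ± 0.06 (0.737). Without the arrays of outlying SD the call of Cxcl13 ended (-0.33, 0.108) and probe 1 of Ccl21a passed (0.56, 0.000144). After quantile normalization the difference turned sign for Ccl19 (-0.041) and Madcam1 (-0.075) and was -0.46 for Cxcl13, and none of the 3 passed.

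Among themselves, 10 of the 15 pairs of the 6 genes passed above the cut by limma in both directions of the fit, with 8 positive and 2 negative, where Ccl21a stands for its probe 1. The share of all probes that passed as higher or lower was 9.88% and 8.53% with Cxcl13, 9.04% and 8.87% with Ccl19, 25.4% and 37.0% with Ccl21a probe 1, 24.6% and 17.3% with Ccr7, 27.2% and 23.3% with Ltb, and 15.3% and 16.6% with Madcam1. The 3 chemokines were the closest. Cxcl13 had r = 0.717 with Ccl19 (rho 0.732, adjusted p = 5.78e-08) and r = 0.659 with Ccl21a (rho 0.667, 1.4e-06). Ccl19 had r = 0.681 with Ccl21a (rho 0.704, 4.81e-07). For r and rho alike the permutation test gave 1e-05 in each of these pairs. Leaving out the 2 farthest arrays gave r = 0.673 for Cxcl13 with Ccl19, 0.617 for Cxcl13 with Ccl21a and 0.635 for Ccl19 with Ccl21a. Ltb had r = 0.431 with Cxcl13 (adjusted p = 0.00757), 0.446 with Ccl19 (0.00564) and 0.518 with Madcam1 (0.000581). Madcam1 had r = 0.429 with Cxcl13 (0.00885) and 0.349 with Ccl19 (0.0448). The pairs of Ccl21a probe 1 with Ltb (r = 0.05, adjusted p = 0.794) and with Madcam1 (0.15, 0.389) did not pass, but they did without the arrays of outlying SD (r = 0.354 and 0.343, adjusted p = 0.0334 and 0.0496). The other probes of the gene passed with both over all 56 arrays. Probe 2 had r = 0.671 with Ltb and 0.601 with Madcam1, and probe 3 had 0.665 and 0.511.

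Ccr7 was the member with negative relations. Above the cut it ran lower with Ccl21a probe 1 (r = -0.583, rho -0.602, adjusted p = 7.56e-05 by limma) and with Cxcl13 (r = -0.425, rho -0.461, 0.0116). The permutation p was 1e-05 for r and rho of the pair with Ccl21a, and 0.00107 and 0.00042 for that with Cxcl13, and without the 2 farthest arrays r was -0.566 and -0.430. Its pairs with Ccl19 (r = -0.317, adjusted p = 0.0793), Ltb (0.05, 0.803) and Madcam1 (-0.14, 0.427) did not pass. Nor did those with Ccl21a probe 2 (-0.155, 0.399) and probe 3 (0.013, 0.947). After quantile normalization 2 of the 15 pairs passed above the cut.

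Below the cut 7 pairs passed, all of them among the 10 and with the same sign in both classes. There 9.12% of all probes were higher and 13.7% lower with Cxcl13, and 3.45% were higher and 2.76% lower with Ccl19. These shares were 19.8% and 29.5% with Ccl21a probe 1, and 17.9% and 13.1% with Ccr7. With Ltb they were 15.8% and 18.0%, and with Madcam1 21.0% and 14.2%. The closest was Cxcl13 with Ltb (r = 0.443, rho 0.397, limma adjusted p = 1.14e-11). Ltb with Ccl19 had r = 0.321 (rho 0.311, 5.41e-05) and Cxcl13 with Ccl19 0.312 (rho 0.292, 0.000103). The permutation p of these was at most 2e-05, and without the 2 farthest arrays r was 0.440, 0.317 and 0.302. Weaker were Cxcl13 with Ccl21a probe 1 (0.183, adjusted p = 0.0175), Ltb with Madcam1 (0.152, 0.0437), Ccr7 with Ccl21a probe 1 (-0.20, 0.00459) and Ccr7 with Cxcl13 (-0.20, 0.00972). Ccl21a probe 2 had r = 0.127 with Cxcl13 and -0.07 with Ccr7 there, and probe 3 had 0.05 and -0.003. None of these passed. The relation of Ccl19 with Ccl21a, one of the closest above the cut, did not pass below it (0.10, 0.354), and the difference between the classes was not tested.

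**Figure D4:**
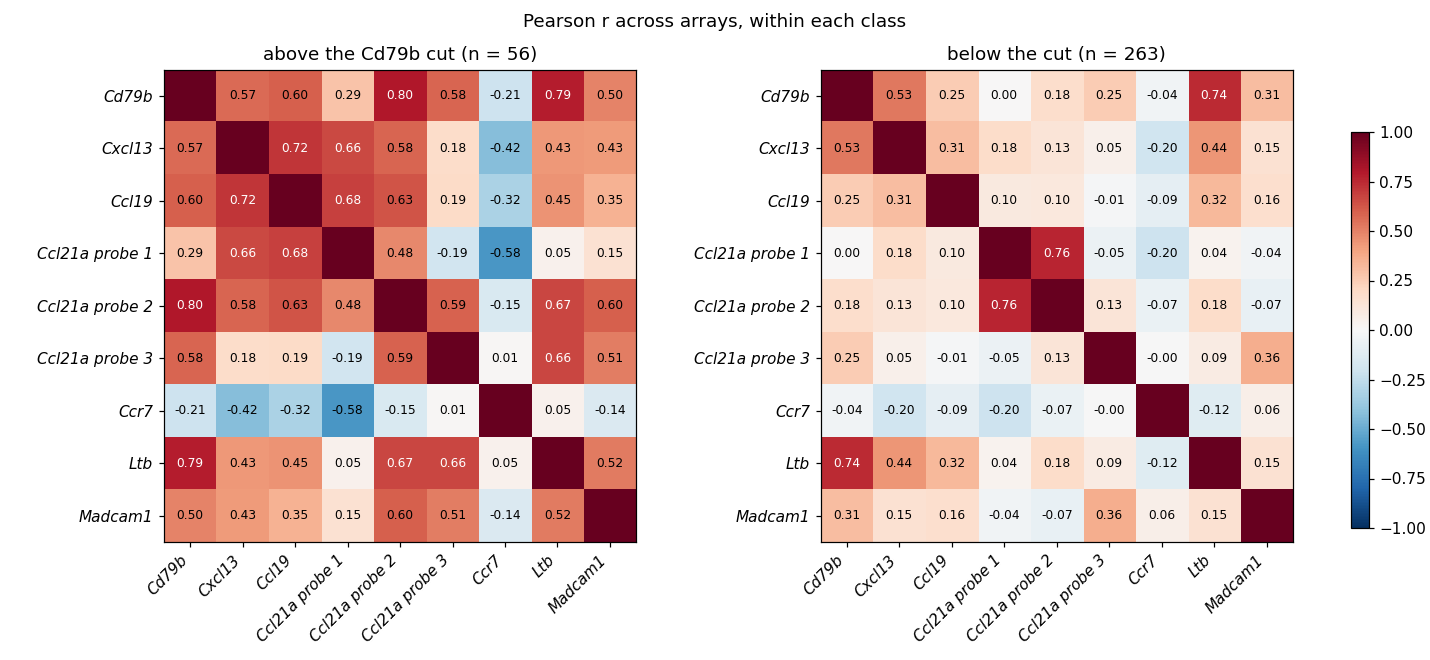
Pearson r between Cd79b and the 8 member probes across arrays above the cut (left, n = 56) and below it (right, n = 263), with red for positive and blue for negative values. Above the cut Cxcl13, Ccl19 and Ccl21a probe 1 have r from 0.659 to 0.717, and Ccr7 has r = -0.583 with that probe; below it the highest value among members is 0.761, between Ccl21a probes 1 and 2.

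The probes of Ccl21a could be compared with each other. Below the cut probes 1 and 2 followed each other closely (r = 0.761, rho 0.748, permutation p = 1e-05, the smallest possible, r = 0.748 without the 2 farthest arrays), whereas probe 3 had r = -0.05 with probe 1 (p = 0.379) and 0.132 with probe 2 (p = 0.0326). Above the cut the r of probes 1 and 2 was 0.481, and it was 0.799 without the arrays of animals 55 and 75. Probe 3 had r = 0.590 with probe 2 and -0.19 with probe 1 there. Below the cut the probes with different gene IDs, 1 and 2, thus correlated more closely than probes 2 and 3 of the same ID, while above it, over all 56 arrays, probes 2 and 3 had the higher r.

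**Figure D5:**
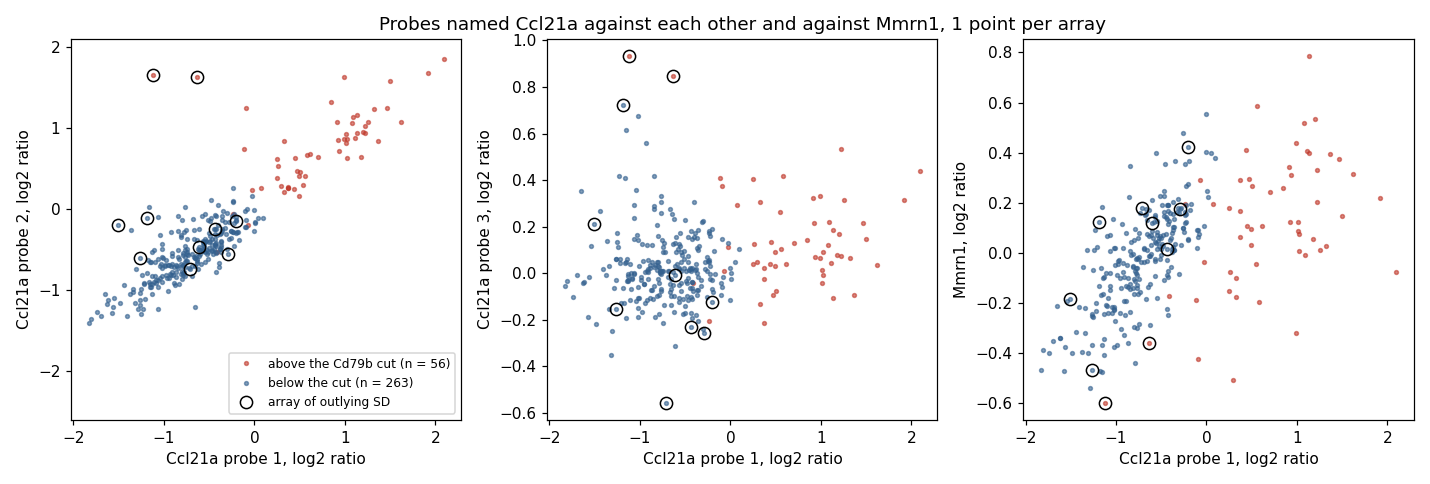
Log2 ratios of Ccl21a probe 1 against those of probe 2 (left), probe 3 (middle) and the lymphatic gene Mmrn1 (right), 1 point per array, for arrays above the Cd79b cut (n = 56) and below it (n = 263), with the 10 arrays of outlying SD circled. Below the cut r is 0.761 with probe 2, -0.05 with probe 3 and 0.726 with Mmrn1. Of the 7 lymphatic endothelium probes, Mmrn1 among them, 3 were higher and 3 lower with probe 1 there by limma. Over all probes 19.8% were higher and 29.5% lower.

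Genes most like each member were named by the highest Pearson r over the arrays of a class, as a description. For Cxcl13 above the cut (n = 56) these were Evl (0.841), the lymphocyte phosphatase Ptpn22 (0.839) and the leukocyte integrin chain Itgal (0.834), and below it (n = 263) the leukocyte phosphatase Ptprc (0.647), Slamf8 (0.644) and Gpr65 (0.606). For Ccl19 they were the dendritic cell surface protein Cd83 (0.814), the integrin chain Itgb2 (0.803) and Lpxn (0.802) above, and Derl3 (0.460), Unc5cl (0.435) and the transcription factor Stat4 (0.420) below. 

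For Ccl21a probe 1 the genes with the highest r above the cut were the chaperone Clu (0.883), the endocytic receptor Ly75 (0.874) and the T cell regulator Tox (0.873). Below it they were Antxr1 (0.748), Mmrn1, a protein of lymphatic and other endothelium (0.726), and Serpinf1 (0.703). Probe 2 went with Fut7, which builds selectin ligands (0.906), the kinase Fyn (0.860) and Gimap7 (0.856) above, and with Numbl (0.669), the matrix protease Mmp2 (0.651) and Dact3 (0.645) below. Probe 3 went with Nrsn2 (0.935), the protease Adam17 (0.927) and Rabgap1l (0.925) above, and with Adam17 (0.850), Asb16 (0.829) and Tert (0.825) below.

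Of the lymphatic endothelium list (6 genes, 7 probes), 3 probes were higher and 3 lower with Ccl21a probe 1 below the cut by limma, where 19.8% and 29.5% of all probes were. Higher were Mmrn1 by 0.37 ± 0.02 (adjusted p = 1.81e-40), Reln by 0.47 ± 0.04 (3.55e-23) and the hyaluronan receptor Lyve1 by 0.18 ± 0.05 (0.000328). Lower were the probes of Stab2 (-0.13 and -0.24) and Prox1, the transcription factor of lymphatic identity (-0.08). Above the cut 2 were higher, Mmrn1 (0.22 ± 0.05, 0.000353) and Lyve1 (0.16 ± 0.07, 0.0404), and 4 lower, beside 25.4% and 37.0% of all probes. In the follicular dendritic and reticular list 3 of 6 probes were higher and 1 lower with probe 1 below the cut. Those of Clu, Il7 and Pdpn, a surface protein of reticular and lymphatic cells, were higher by 0.44, 0.28 and 0.44, with adjusted p of at most 9.64e-07, and that of Fcamr was lower (-0.11, 3.25e-05).

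Ccr7 had the matrix enzyme Loxl1 as its most similar gene in both classes, with r = 0.862 above the cut and 0.854 below. The next were Ccdc85a (0.854) and the collagen Col12a1 (0.781) above, and Tbata (0.769) and Vmn2r104 (0.742) below. Among the 13 T cell probes, 0 were higher and 4 lower with Ccr7 above the cut by limma, where 24.6% and 17.3% of all probes were, and 2 were higher and 2 lower below it, where 17.9% and 13.1% of all probes were higher and lower. Those higher below the cut were Zap70 (0.50, adjusted p = 1.94e-28 by limma) and Cd4 (0.37, 0.000331), and those lower were Cd2 (-0.66, 0.000206) and Cd3g (-0.39, 0.0384). Above the cut the T cell genes, some of which are known to share cells with Ccr7, were thus not higher with this probe, and what it reads was not tested.

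Ltb went with Hcls1, a signalling protein of blood cells (0.889), Fau (0.851) and the phosphatase Ptpn18 (0.846) above the cut. Below it the closest were Ptprcap, a partner of the leukocyte phosphatase (0.772), Cd79b (0.742) and the B cell receptor Cd22 (0.716). Madcam1 went with the lymphocyte protease Ctsw (0.771), Rasal1 (0.763) and Iqce (0.762) above, and with Pglyrp2 (0.589), Ltk (0.574) and the natural killer receptor Klra7 (0.517) below.

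The other genes of the lymphotoxin and NF-kB pathway were partly higher above the cut. Of 15 measured probes, 12 had a higher median there and 4 a difference over 1, with a list median of 0.36, against -0.08 over all probes, of which 7194 of 23190 were higher. Among the ligands the difference was 2.00 for Tnfsf11, the ligand RANKL, 1.46 for the B cell survival factor Tnfsf13b, 1.06 for Tnf and 0.99 for Lta, the partner chain of Ltb, but 0.14 for Tnfsf14, another ligand of Ltbr. The inhibitor of apoptosis Birc3, an NF-kB target, differed by 1.21. The transcription factors Nfkb2 (0.40), Relb (0.36) and Rela (0.34) differed by less, and the receptor Ltbr (0.09) and the kinase Map3k14 (-0.17) hardly.

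Above the cut 10 of the 15 pathway probes were higher and 1 lower with Cd79b by limma, where 12.3% and 17.0% of all probes were. With Ltb 10 were higher and 1 lower as well, beside 27.2% and 23.3% of all probes. With Ltb, Lta was higher by 0.39 ± 0.04 (adjusted p = 1.97e-10), Nfkb2 by 0.23 ± 0.03 (3.89e-09), Relb by 0.27 ± 0.04 (7.14e-07) and Ltbr by 0.20 ± 0.05 (0.00087). The receptor chain Tnfrsf1a was lower by -0.22 ± 0.04 (3.4e-05). With Cxcl13 above the cut 8 were higher and 0 lower (9.88% and 8.53% of all probes), with Ccl19 9 and 1 (9.04% and 8.87%), and with Madcam1 9 and 1 (15.3% and 16.6%). With Ccl21a probe 1 it was 5 and 3, beside 25.4% and 37.0% of all probes, and with Ccr7 1 and 4, beside 24.6% and 17.3%. Below the cut 6 were higher and 1 lower with Cd79b, where 24.8% and 22.8% of all probes were. There 8 were higher and 2 lower with Ltb, where 15.8% and 18.0% of all probes were. With Ltb, Lta was higher there by 0.19 ± 0.04 (0.000173) and Relb had 0.07 ± 0.03 (0.0854), which did not pass.

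Among 19 probes of other chemokines, receptors and homing integrins, 10 had a higher median above the cut and 6 a difference over 1, with a list median of 0.03. Over all 23190 probes, 7194 were higher and 590 had a difference over 1. Of the binding partners of the members, Cxcr5, the receptor of Cxcl13, differed by 3.84 and Itgb7, a chain of the receptor of Madcam1, by 2.07. Itga4, the other chain of that receptor, differed by -0.03, and Ackr4, a scavenger of Ccl19 and Ccl21, by 0.22. Ccr6, a receptor on B cells, differed by 4.47, its ligand Ccl20 by 0.26. The interferon-induced chemokines Cxcl10 and Cxcl9 differed by 2.74 and 2.30, with their receptor Cxcr3 at 2.15. Those of other tissues did not follow: Ccl25 of gut and thymus (-0.14), the skin chemokine Ccl27a (-0.33) and Ccl28 of mucosa (-0.06). Cxcl12 and Cxcr4 differed by 0.05 and 0.03. Within the arrays above the cut, 10 of the 19 were higher and 1 lower with Cd79b by limma, where 12.3% and 17.0% of all probes were, with Cxcr5 (slope 0.98 ± 0.04, adjusted p = 3.44e-29) and Itgb7 (0.80 ± 0.05, 4.84e-19) among them. The scavenging receptor Ackr3 was lower (-0.60 ± 0.14, 0.000466). Below the cut 10 were higher and 3 lower, where 24.8% and 22.8% of all probes were.

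Madcam1 is made by endothelium, so genes of high endothelial venules were also counted. Of 10 probes, 6 had a higher median above the cut, beside 7194 of all 23190 probes. A difference over 1, reached by 2.54% of all probes, was found for 3: Vcam1 (1.81), Fut7 (1.77) and Gcnt1 (1.16), which leukocytes or macrophages are also known to express. The endothelial genes Cdh5 (-0.09), Selp (-0.23), Sele (0.04), Podxl (-0.13) and Cd34 (0.06) had differences between -0.23 and 0.06. The genes Glycam1 and Chst4, which define these venules, were not measured. With Madcam1, 2 of the 10 were higher and 0 lower above the cut by limma, where 15.3% and 16.6% of all probes were, and 4 and 0 below it, where 21.0% of all probes were higher and 14.2% lower.

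Markers of other cells moved with the classes. Over all probes, 7194 of 23190 had a higher median above the cut and 2.54% a difference over 1. All 10 B cell probes had a higher median above the cut, 6 of them by over 1, and 12 of 13 T cell probes did, 4 by over 1. The mean of the B cell probes ran from -0.03 to 1.85 above the cut and from -1.79 to -0.43 below it, with no overlap. Cd79b, which made the classes, is itself a B cell gene, so the B cell probes in part restate the cut. That of the T cell probes ran from -0.07 to 1.45 above and from -1.12 to -0.13 below. Macrophage genes of the spleen were higher by 3.81 for Marco, 3.21 for 1 probe of Timd4, 1.92 for Cd5l and 1.69 for Spic, though Siglec1 differed by -0.01. Of the other lists, 6 of 7 dendritic cell probes had a higher median above the cut (3 over 1, list median 0.87), as did 7 of 9 neutrophil and marrow probes (4 over 1, 0.78) and 5 of 6 follicular dendritic and reticular probes (2 over 1, 0.75). It was 4 of 4 for adipocytes (2 over 1, 1.02) and 3 of 6 for keratinocytes (1 over 1, 0.097). Some genes stand in more than 1 list, such as Vcam1, Tnfsf11, Lta and Tnf. All 4 muscle probes were lower, with a median of -0.45. Lymphatic endothelium probes had a median of 0.12, with Prox1 at -0.12, Flt4 at -0.16 and Lyve1 at 0.17. Ratios to a pool give no absolute level, so no marker can be said to be absent. The part of B cells, T cells, macrophages or the other cells listed in the levels of the members was not tested.

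The measured genomic neighbours of the members did not all follow, though some genes near Ltb did. Of 9 measured probes among the 10 genes on each side of Ccl19 and Ccl21a in the RefSeq gene order, 0 had a higher median above the cut, and the list median was -0.21. Over all probes 7194 of 23190 had a higher median. Around Ltb 6 of 12 did, with a list median of 0.01. These were led by Tnf (1.06), Lta (0.99) and the MHC gene H2-Q1 (0.77), while probes of Bag6 (-0.33 and 0.00), Prrc2a (-0.17), Nfkbil1 (0.07) and Ddx39b (0.02) differed less. Above the cut 5 of the 12 were higher and 0 lower with Ltb by limma, beside 27.2% and 23.3% of all probes. Among them were Lta (r = 0.781), Nfkbil1 (0.668) and Tnf (0.456). Below it these 3 were higher and 0 lower, beside 15.8% and 18.0% of all probes.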

How the data were processed

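Muscle RNA of F2 mice was measured on 319 arrays of 2 channels, all in 1 group, with 318 animal numbers since 2 arrays carry the number 227. The authors deposited a log10 ratio for each probe on each array. The base follows from its limits at -2 and 2 and the direction from Y-linked genes, since the labels state neither. Background correction and normalization before deposit are not given in the sources used here. Values were rescaled to log2 and otherwise kept. Blanks (0.654%) were missing values, and 23190 probes with values on at least 80% of arrays were tested. For 1 sample the title and the source name give different animal numbers, and the source name was used. 

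Genes were named by the platform table, with current names from RefSeq GRCm38.p6. The members, the cut and the gene lists were chosen with earlier results of these data known. Where a gene had several probes, that of largest SD led (Ccl21a probe 1). The 3 genes other than members with the highest r to each probe were named, beside fixed lists: B cell, T cell, follicular dendritic and reticular, lymphatic endothelium, spleen macrophage, dendritic cell, neutrophil and marrow, keratinocyte, adipocyte, muscle, lymphotoxin and NF-kB, other chemokines, high endothelial venule, and genomic neighbours. Slopes within the classes and their difference were fitted with limma 3.58.1 (R 4.3.3; lmFit, eBayes), with Benjamini-Hochberg adjusted p at a threshold of 0.05 over all probes, after the fit was tested on simulated data. Permutation tests were two-sided with 100000 resamples, in Python 3.11.15. Arrays of outlying SD lay over the upper quartile by 3 interquartile ranges.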

Additional observations from a re-analysis of the deposited data

Results flagged for a closer look

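The slope on Cd79b differed between the arrays above and below the cut for the lead probes of 3 members by the limma test of the difference, above minus below. Ccl21a probe 2, which is not the lead probe of its gene, also differed (0.47, adjusted p = 6.27e-05). The difference was 0.28 for Ccl19 (slopes 0.42 and 0.14, adjusted p = 0.000801), 0.13 for Madcam1 (0.24 and 0.11, 0.0243) and -0.47 for Cxcl13 (0.51 and 0.99, 0.0255). For Cxcl13 it was -0.36 (0.141) with the 2 arrays of most distant Cd79b left out and -0.33 (0.108) without the arrays of outlying SD. The array of animal 193 had Cxcl13 at 1.16 with Cd79b at -1.65, the highest Cxcl13 below the cut. Its part in this difference was not tested.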

How the results depend on the processing

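Of 13 settings, leaving out arrays within 0.3 log2 units of the cut removed 0 arrays. Median differences kept their sign in every setting run, and were within the spread between arrays except with probe 3 in place of probe 1 of Ccl21a (0.091).

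Above the cut quantile normalization left 496 probes higher and 122 lower with Cd79b, against 2853 and 3931, and 2 pairs of members against 10. It ended the calls of Cxcl13 (0.29), Ccl19 (0.15) and Madcam1 (0.036), and below the cut Ccl21a probe 1 passed (0.10). Slopes differed for 20 probes against 1974. The difference was -0.46 for Cxcl13, no longer past the threshold, and its sign turned for Ccl19 (-0.041) and Madcam1 (-0.075), neither past the threshold. The cause was not tested.

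Above the cut, Ccl21a probe 1 passed with array medians subtracted (0.35), without the 2 farthest arrays (0.43), without arrays of outlying SD (0.58), with the first principal component as a covariate (0.57), with the B cell score (0.65), and as probe 2 (0.65) or probe 3 (0.21). Below it, probes 2 (0.18) and 3 (0.12) passed, and with the B cell score the slope was -0.25. All values given with the B cell score are per unit of that score. Their sizes cannot be compared with slopes per log2 unit of Cd79b. Ccr7 above the cut passed without arrays of outlying SD (-0.12) and with the component (-0.12). Among differences of slopes, Cxcl13 missed the threshold without the 2 farthest arrays (-0.36), without arrays of outlying SD (-0.33) and with the B cell score (-0.33), as did Madcam1 without the farthest (0.13, adjusted p = 0.0514). Ccl21a probe 1 passed without the farthest (0.45), without arrays of outlying SD (0.56), with the B cell score (0.90) and as probe 2 (0.47), and Ltb passed with the B cell score (-0.64).

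Probes lower with Cd79b above the cut numbered 2237 without the farthest arrays, 2376 without arrays of outlying SD and 1528 with the B cell score. Below it the component left 1329 higher and 1320 lower. Slopes differed for 5442 probes without arrays of outlying SD and 12450 with the B cell score. Of the single pairs of members over all settings, 273 values stayed on their side of the threshold, 17 lost the call and 10 gained it. Leaving out the array labelled 227_2, an alternative chosen after seeing the data, changed no call of a member, and 1976 probes differed in slope against 1974. No paired analysis was possible because all arrays form 1 group.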
